A study of Mus musculus with 12 samples.

Results

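The response of Ahnak knockout (KO) white adipose tissue to a high fat diet (HFD) was measured on 6 arrays, 3 from KO mice on HFD and 3 from KO mice on regular chow, out of 12 arrays in the series. The arrays were chosen by their labels alone. All animals were male mice aged 18 weeks that had been on their diet for 12 weeks, in a room at 24 ± 2 °C with 12 h of light. The HFD held 60% fat, 20% carbohydrate and 20% protein. The other 6 arrays came from wild-type (WT) mice on the same 2 diets and are given only where they show how the KO response differs. The labels describe neither the knockout allele nor the fat depot. Replicates are numbered, and nothing in the labels ties each number to its own animal; the p-values therefore cover the spread among these samples alone, which may be technical.

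White adipose tissue stores triglyceride in adipocytes, which enlarge when energy intake exceeds use and secrete hormones such as leptin in proportion to the stored fat. Adipocytes also build fatty acids from glucose carbon through citrate, acetyl-CoA and malonyl-CoA, a route that dietary fat is known to reduce. Expanding fat remodels its matrix and vessels and commonly recruits macrophages. AHNAK is a very large scaffold protein under the plasma membrane that binds the complex of annexin A2 and S100A10.

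The deposited values were log2 intensities, on which a difference of 1 is a 2-fold difference, and 19937 genes were tested. Changes are given as HFD minus chow ± the standard error (SE) of the fit, with n = 3 arrays a group, and a gene was called at a limma adjusted p under 0.05. Ahnak itself read 9.31, 9.27 and 9.42 on the KO chow arrays and 9.58, 9.40 and 9.45 on the KO HFD arrays (replicates 1 to 3). These overlapped, and the diet difference was 0.14 ± 0.13 (adjusted p = 0.55). All 6 KO arrays lay below the 6 WT arrays, which read 9.68 to 10.27. Arrays correlated across genes at r = 0.992 to 0.995 within KO chow and 0.993 to 0.996 within KO HFD. Genes are no independent replicates in such a correlation. The first principal component of the 6 KO arrays held 64.5% of their variance and separated the diets. KO chow replicate 2 (-7.47) and KO HFD replicate 1 (7.80) lay nearest to each other on it, against -32.0 and -26.2 for the other chow arrays and 26.3 and 31.5 for the other HFD arrays.

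In KO, HFD changed 1264 of 19937 genes (6.34%), of which 559 were higher (2.80%) and 705 lower (3.54%). The median change over all genes was -0.01. Falls were larger than rises: 256 genes were lower by more than 2-fold and 34 were higher by as much. Arrays of the KO diets did not overlap for 28.8% of all genes and for 1252 of the called genes. The number of calls depended on single arrays. It was 62 without KO HFD replicate 3, 140 without KO chow replicate 1, 229 without KO HFD replicate 2 and 233 without KO chow replicate 3. It was 750 without WT HFD replicate 3 and 815 without WT chow replicate 1, which enter only through the shared spread, and 1019 to 1509 without each of the other 6. A set of 58 genes, 38 higher and 20 lower, was called whichever array was left out. Of the 80 called genes that the naming rule chose, all kept their sign in each of these 12 fits, and 12 kept their call in each; a call said below to be lost is one whose adjusted p then exceeded 0.05. In WT, 4802 genes were called (24.1%), 11.8% of all genes higher and 12.3% lower, and the diets did not overlap for 38.8%.

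The genes that rose most included Slc5a7, the choline transporter of cholinergic nerve endings. Slc5a7 read 4.83, 4.48 and 5.09 on chow and 6.64, 8.23 and 7.46 on HFD, a rise of 2.64 ± 0.41 (adjusted p = 0.012). The HFD arrays all lay above the chow arrays and spread over more than 1 log2 unit. Thbs1, the matrix glycoprotein thrombospondin 1, read 9.64, 8.65 and 8.73 on chow and 11.45, 11.15 and 11.53 on HFD (2.37 ± 0.32, adjusted p = 0.007). Its relative Thbs2 rose from 7.78, 7.94 and 7.82 to 10.19, 9.43 and 9.06 (1.71 ± 0.27, adjusted p = 0.012). Neither thrombospondin had overlapping groups. Dusp10, a phosphatase that inactivates stress-activated MAP kinases, read 6.80 to 7.05 on chow and 8.41 to 8.78 on HFD (1.65 ± 0.17, adjusted p = 0.0019). Dock8, a guanine nucleotide exchange factor of blood cells, rose by 1.75 ± 0.21 (adjusted p = 0.0042), and Vgll3, a cofactor of TEAD transcription factors, by 1.47 ± 0.17 (adjusted p = 0.0042). Jade3, a component of histone acetyltransferase complexes, rose by 1.83 ± 0.21, Prr32 by 1.59 ± 0.15, and Zdhhc2, a palmitoyl transferase, by 1.54 ± 0.30. Of these genes, only Slc5a7 and Zdhhc2 lost the call with an array left out: Slc5a7 without KO HFD replicate 3, and Zdhhc2 also without KO HFD replicate 2 or KO chow replicate 1. The largest rise of all, in the predicted gene Gm5627 (2.90 ± 0.20, adjusted p = 0.00025), was passed over by the naming rule and is given because its value was seen to be the largest.

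Genes that mark growing fat rose together in part. Of 22 measured genes of adipose expansion, 8 rose and 0 fell, with a median change of 0.42 against -0.01 over all genes. The share called was 36.4%, against 6.34% of all genes. Lep, which encodes leptin, read 11.51, 11.84 and 11.85 on chow and 12.34, 12.75 and 12.46 on HFD (0.78 ± 0.12, adjusted p = 0.012). Every HFD array lay above every chow array. Peg3, an imprinted zinc finger gene, rose from 7.32, 7.56 and 7.95 to 10.10, 9.74 and 10.09 (2.37 ± 0.36, adjusted p = 0.011), and its imprinted neighbour Zim1 from 4.73, 4.70 and 4.94 to 7.50, 6.04 and 6.25 (1.81 ± 0.29, adjusted p = 0.012). Neither gene had overlapping groups, and Zim1 was highest on KO HFD replicate 1. Sfrp5, a secreted inhibitor of Wnt signalling, rose from 8.13, 7.25 and 7.66 to 9.68, 9.69 and 10.24 (2.19 ± 0.29, adjusted p = 0.007). Bmp3, which restrains BMP signalling, rose by 0.88 ± 0.14 (adjusted p = 0.012), Npr3, the clearance receptor of natriuretic peptides, by 0.43 ± 0.10 (adjusted p = 0.03), and Cavin1, a coat protein of caveolae, by 0.40 ± 0.08 (adjusted p = 0.02). Thbs1 was the remaining member called. Mest, an imprinted gene that is a known marker of fat expansion, read 12.02, 11.61 and 11.48 on chow and 12.54, 12.55 and 12.73 on HFD without being called (0.90 ± 0.36, adjusted p = 0.16). In WT, 9 members rose and 1 fell. Calls of Lep, Peg3 and Bmp3 were lost without KO HFD replicate 3 alone, those of Npr3 and Cavin1 also without KO HFD replicate 2, KO chow replicate 1 or KO chow replicate 3, and those of Thbs1, Sfrp5 and Zim1 held. The KO count dropped to 3 without KO HFD replicate 3 and was 6 to 9 without any other array.

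**Figure D1:**
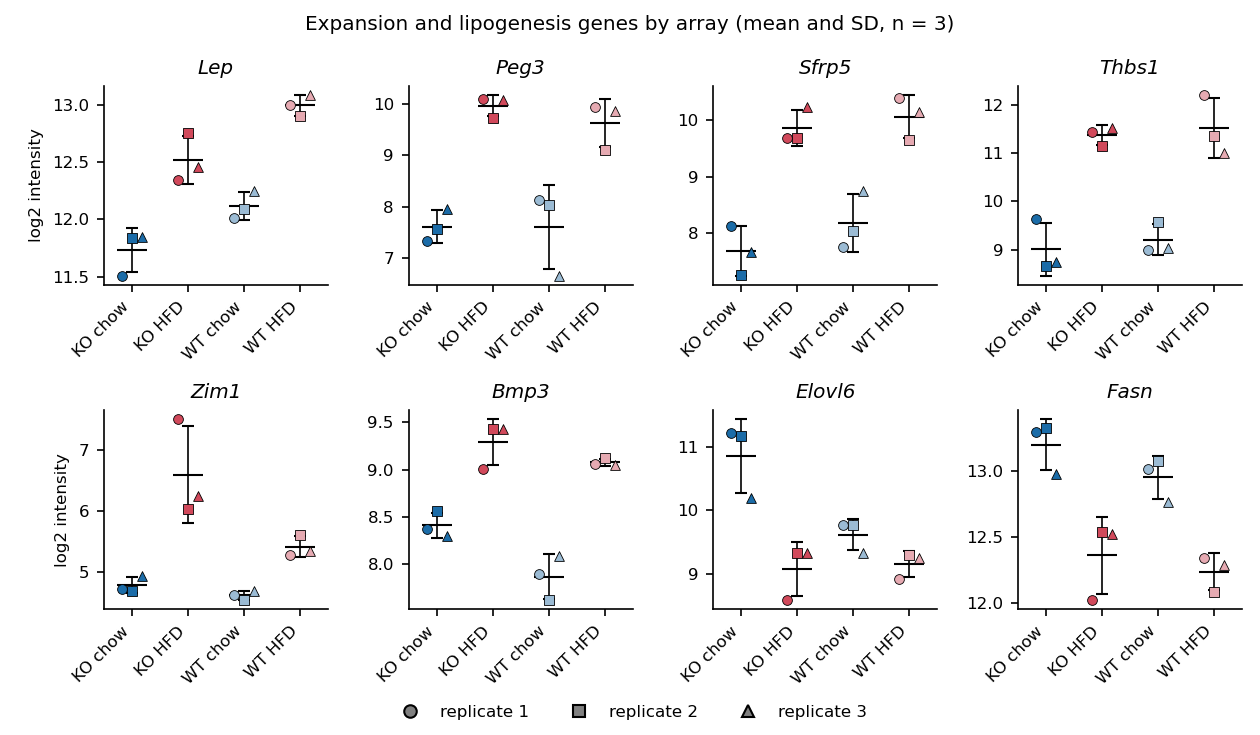
Log2 intensity of 8 genes on each array (y axis), by genotype and diet (x axis); markers are replicates, and bars show the mean and SD of n = 3 arrays. Lep, Peg3, Sfrp5, Thbs1, Zim1 and Bmp3 lay higher on all 3 KO HFD arrays than on all KO chow arrays, and Elovl6 and Fasn lay lower.

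A few secreted products of fat rose, while the list as a whole did not shift. Of 20 adipokines and secreted regulators, 4 rose and 0 fell (median 0.04): Lep, Sfrp5, Rarres2 and Angptl4. That is 20.0%, against 6.34% of all genes called, and Lep and Sfrp5 were also counted in the expansion list. Changes lay above 0 for 11 members and below 0 for 9. The largest change in the list, that of Lcn2 (-2.76 ± 0.78, adjusted p = 0.06), was not called. Rarres2, the precursor of chemerin, rose from 10.56, 10.62 and 10.66 to 11.07, 11.36 and 11.39 (0.66 ± 0.12, adjusted p = 0.016). Angptl4, an inhibitor of lipoprotein lipase, rose from 10.78, 11.15 and 11.35 to 11.76, 12.00 and 11.97 (0.82 ± 0.17, adjusted p = 0.025). Groups overlapped for neither. The difference of the KO from the WT response of Rarres2, which was 0.22 ± 0.12 in WT, had an unadjusted p of 0.02 and was not called. The calls of Rarres2 and Angptl4 were lost without KO chow replicate 1, KO HFD replicate 2 or KO HFD replicate 3. Leaving out KO chow replicate 1 or KO HFD replicate 2 left 2 of the 20 called, and leaving out KO HFD replicate 3 left 1.

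Genes of adipocyte identity were mostly not called. Adipoq, which encodes adiponectin, read 13.15, 13.22 and 13.07 on chow and 13.30, 13.23 and 13.33 on HFD (0.14 ± 0.14, adjusted p = 0.60). Pparg, the master regulator of fat cell differentiation, read 11.33, 11.67 and 11.25 against 11.09, 11.39 and 11.50 (-0.09 ± 0.15, adjusted p = 0.78). Cebpa had -0.03 ± 0.13 (adjusted p = 0.93) and Fabp4, the fatty acid carrier of adipocytes, 0.13 ± 0.07 (adjusted p = 0.31). The diets overlapped for Pparg and Cebpa and lay within 0.01 of each other for Adipoq. Of 19 members, 1 rose and 0 fell (median 0.11), while in WT 0 rose and 7 fell (median -0.36). The KO share called was 5.26%, near the 6.34% of all genes. The riser was Aqp7, the channel through which adipocytes release glycerol (0.59 ± 0.13, adjusted p = 0.027). Its call was lost without any KO array except KO chow replicate 2. Aqp7 and Npr3 were the 2 members called among 14 genes of lipolysis.

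Genes of fatty acid synthesis fell. Of 20 genes of de novo lipogenesis, 9 fell and 0 rose, with a median change of -0.69. Elovl6, which elongates palmitate, read 11.21, 11.16 and 10.19 on chow and 8.59, 9.32 and 9.33 on HFD (-1.78 ± 0.28, adjusted p = 0.012). All HFD arrays lay below all chow arrays, and the call held whichever array was left out. Fasn, the fatty acid synthase, fell by 0.84 ± 0.15 (adjusted p = 0.017), and Acly, which makes cytosolic acetyl-CoA from citrate, fell by 1.12 ± 0.23 (adjusted p = 0.022). Acaca and Acacb, the acetyl-CoA carboxylases, fell by 1.03 ± 0.22 and 0.73 ± 0.18. Slc25a1, the mitochondrial citrate carrier, read 12.30, 12.38 and 12.06 on chow and 11.21, 11.58 and 11.42 on HFD (-0.85 ± 0.14, adjusted p = 0.012). Me1, the cytosolic malic enzyme that supplies NADPH, fell from 13.15, 13.15 and 12.78 to 11.92, 12.44 and 12.32 (-0.80 ± 0.14, adjusted p = 0.016). For both genes the diets did not overlap. Of the desaturases of polyunsaturated fatty acids, Fads1 fell by 1.00 ± 0.15 (adjusted p = 0.0093) and Fads2 fell by 1.68 ± 0.30 (adjusted p = 0.017).

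Other members of the route were not called. Scd1, the main stearoyl-CoA desaturase of fat, lay near the top of the scale in all 6 arrays, at 13.72 to 13.87, with a change of 0.01 ± 0.08 (adjusted p = 0.95). The transcription factors Srebf1 and Mlxipl, which drive lipogenic genes, had -0.40 ± 0.14 (adjusted p = 0.12) and -0.21 ± 0.13 (adjusted p = 0.39), and Thrsp had -0.26 ± 0.31 (adjusted p = 0.67). The response was not the same gene by gene in WT, where 10 members fell at the same median of -0.69. In WT Elovl6 had -0.46 ± 0.28 and Me1 -0.08 ± 0.14; the differences of KO from WT, -1.32 and -0.72, had unadjusted p of 0.006 and 0.0038 and were not called. The call of Fads1 was lost without KO HFD replicate 3, those of Fasn, Slc25a1 and Me1 also without KO chow replicate 1, those of Acly and Fads2 also without KO HFD replicate 2, Fads2 also without KO chow replicate 3, and those of Acaca and Acacb without any 1 KO array, Acacb also without WT chow replicate 1 or WT HFD replicate 3. The lipogenesis count in KO was 1 without KO HFD replicate 3, 2 without KO chow replicate 1, 5 without KO HFD replicate 2 and 6 to 10 without any other array.

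Sugar metabolism fell at a few steps. Of 18 genes of glycolysis and the pentose phosphate pathway, 4 fell and 0 rose (median -0.22, 22.2% called against 6.34% of all genes). The transketolase gene Tkt, of the latter pathway, read 12.50, 12.57 and 12.27 on chow and 11.27, 11.48 and 11.53 on HFD (-1.02 ± 0.09, adjusted p = 0.0014), and its call held whichever array was left out. Pfkl, a phosphofructokinase subunit, fell from 10.42, 10.45 and 10.38 to 9.95, 10.03 and 9.98 (-0.43 ± 0.07, adjusted p = 0.013). Pkm, a pyruvate kinase, read 11.13 to 11.27 on chow and 10.63 to 10.74 on HFD (-0.51 ± 0.10, adjusted p = 0.021). None of the 3 genes overlapped between diets. In WT, Pkm had 0.10 ± 0.10, and the difference of -0.61 had an unadjusted p of 0.0011. Aldoc, an aldolase, fell by 1.69 ± 0.44 (adjusted p = 0.046). Pfkl lost its call without KO HFD replicate 3, and Pkm and Aldoc without KO chow replicate 1, KO chow replicate 3, KO HFD replicate 2 or KO HFD replicate 3. Aldoc lost its call also without WT chow replicate 1, WT HFD replicate 2 or WT HFD replicate 3. The list count was 1 without KO HFD replicate 3 and 2 without KO chow replicate 1, KO chow replicate 3 or KO HFD replicate 2. Outside the lists, and named after their values were seen, Slc2a5, the fructose transporter, fell from 6.73, 6.51 and 6.02 to 5.16, 5.37 and 4.87 (-1.29 ± 0.17, adjusted p = 0.007), and Pdk1, which inhibits pyruvate dehydrogenase, fell by 0.96 ± 0.12 (adjusted p = 0.0042). Both calls held whichever array was left out.

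Mitochondrial genes had small changes that lay mostly below 0. Of 32 genes of the respiratory chain, 2 fell, Cox4i1 (-0.30 ± 0.07, adjusted p = 0.03) and Cox5a (-0.41 ± 0.09, adjusted p = 0.031), and 31 had a change below 0 (median -0.18). Of 23 genes of the TCA cycle, 3 fell: Pdha1, Idh3b and Sdhb, by 0.49, 0.27 and 0.31 (median of the list -0.15). Both counts went to 0 or 1 without any 1 KO array or without WT HFD replicate 3, and the TCA cycle count to 1 without any 1 WT chow array. Over all genes 48.2% had a change above 0 and 6.34% were called, against 6.25% of the respiratory chain genes and 13.0% of the TCA cycle genes. In WT, 19 respiratory chain genes and 16 TCA cycle genes fell and 1 of each list rose. In the breakdown of branched chain amino acids, 1 of 20 genes rose, Bckdhb, a subunit of the branched chain ketoacid dehydrogenase, and 0 fell. Bckdhb read 9.78, 10.03 and 9.69 on KO chow and 10.94, 10.54 and 11.02 on KO HFD (1.00 ± 0.16, adjusted p = 0.012), a call lost without KO chow replicate 1 or KO HFD replicate 3. In WT it read 9.67 to 9.85 on chow and 8.96 to 9.55 on HFD and was called lower (-0.50 ± 0.16, adjusted p = 0.041). The KO response exceeded the WT response by 1.50, with an unadjusted p of 3.3e-05, and that difference was not called after adjustment over all genes. In WT, 14 members of the list fell.

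Of 17 genes of the circadian clock, 4 fell and 1 rose (median -0.35), and the labels do not give the hour of collection. The share called was 29.4%, against 6.34% of all genes. Dbp, a transcription factor at the output of the clock, read 10.39, 10.54 and 10.09 on chow and 9.66, 9.67 and 9.60 on HFD (-0.69 ± 0.11, adjusted p = 0.012). Ciart, a repressor within the clock, read 8.04, 8.04 and 7.31 on chow and 6.78, 6.37 and 6.37 on HFD (-1.28 ± 0.23, adjusted p = 0.017). All HFD arrays lay below all chow arrays for both genes. Rora, a nuclear receptor of the clock's secondary loop, fell by 0.40 ± 0.07 (adjusted p = 0.018), Hlf, a relative of Dbp, fell by 0.63 ± 0.16 (adjusted p = 0.038), and Clock rose by 0.41 ± 0.10 (adjusted p = 0.035). Usp2, a ubiquitin protease named after its value was seen, fell from 8.87, 8.86 and 8.94 to 7.75, 7.12 and 6.97 (-1.61 ± 0.18, adjusted p = 0.0033), and its call held whichever array was left out. Arntl had 0.26 ± 0.19 (adjusted p = 0.46) and Per2 -0.22 ± 0.12 (adjusted p = 0.31), while in WT Arntl rose by 1.20 and Per2 fell by 1.13. The difference of the KO from the WT response of Per2 was 0.91 (unadjusted p = 0.00027, adjusted p = 0.066). In WT 2 clock genes rose and 12 fell. Dbp lost its call without KO HFD replicate 3, and Ciart and Rora also without KO HFD replicate 2 or KO chow replicate 1. Hlf and Clock lost theirs without WT HFD replicate 3, KO HFD replicate 2, KO HFD replicate 3, KO chow replicate 1 or KO chow replicate 3, and Hlf also without KO chow replicate 2. Without KO HFD replicate 3 no clock gene of the list was called in KO, and without KO HFD replicate 2 or KO chow replicate 1 only 1 was.

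CLOCK and its partner ARNTL bind the palindrome CACGTG, so the promoter of the list member with the largest fall is shown. In RefSeq's GRCm38.p6 the window of Ciart, 250 bases before to 50 after the start, lies at chr3:95882179-95882478 on the minus strand, and capitals mark CACGTG.
Ciart: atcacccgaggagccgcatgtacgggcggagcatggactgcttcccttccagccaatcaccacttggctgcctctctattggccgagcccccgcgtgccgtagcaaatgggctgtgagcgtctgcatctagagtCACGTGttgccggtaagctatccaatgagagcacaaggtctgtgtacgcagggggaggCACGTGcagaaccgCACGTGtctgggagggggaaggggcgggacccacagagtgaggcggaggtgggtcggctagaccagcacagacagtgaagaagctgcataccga
The window holds 3 matches. Among the called members of the clock list, CACGTG was recorded for Ciart alone. Promoters were found for 15 genes of the list. CACGTG occurred on either strand in 8.26% of 19115 promoters of measured genes, in 6 of 20 promoters of the clock list, in 8.39% of 572 promoters of genes higher on HFD in KO and in 8.43% of 724 promoters of genes lower. Of the 7 motifs searched, the clock list also held others more often than all promoters did: CCAAT in 80.0% against 37.4% and GGGCGG in 85.0% against 49.3%. No difference was tested, and no motif was shown to be particular to the list. A match is a description of the sequence and not a measured binding site.

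The 12 named genes with the largest falls in KO were uneven among the HFD arrays, and the mammary and salivary, mesothelial and male tract lists held 1 of them, Epcam. Cuzd1, which encodes a secretory granule membrane protein, read 10.57, 9.45 and 10.55 on chow and 9.19, 4.92 and 4.94 on HFD (-3.84 ± 0.90, adjusted p = 0.034). Epcam, an adhesion molecule of epithelia, read 9.33, 8.01 and 8.75 on chow and 7.53, 4.89 and 5.14 on HFD (-2.84 ± 0.60, adjusted p = 0.025). KO HFD replicate 1 lay within 0.5 of the lowest chow array for both genes, and KO HFD replicates 2 and 3 lay near the WT HFD arrays, which read 4.90 to 5.13. Cdh16, a cadherin of tubular epithelia, read 9.56, 8.16 and 9.21 on chow and 7.81, 5.59 and 5.37 on HFD (-2.72 ± 0.57, adjusted p = 0.025). Cyp2f2, a cytochrome P450 of secretory epithelial cells, read 10.59, 9.63 and 10.43 on chow and 7.20, 6.40 and 6.46 on HFD (-3.53 ± 0.59, adjusted p = 0.014), so that KO HFD replicate 1 lay close to the other HFD arrays for this gene. The other falls among the 12 named were Dcdc2a (-3.63 ± 0.81), a doublecortin-family protein of cilia, Bbox1 (-3.42 ± 0.80), the last enzyme of carnitine synthesis, Plet1 (-3.26 ± 0.78), Iyd (-3.04 ± 0.60), the iodotyrosine deiodinase, Adcy8 (-2.88 ± 0.58), an adenylyl cyclase, B4galnt2 (-2.82 ± 0.62), Fbp1 (-2.75 ± 0.73), a gluconeogenic bisphosphatase, and the gene listed as ccdc198 (-2.71 ± 0.62). All 12 calls were lost without KO HFD replicate 2, KO HFD replicate 3, KO chow replicate 1 or KO chow replicate 3. Those of Cuzd1, Bbox1, Plet1 and Fbp1 were lost also without WT chow replicate 1 or WT HFD replicate 3, and that of Fbp1 without WT chow replicate 3. All 12 held without KO HFD replicate 1 or KO chow replicate 2.

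**Figure D2:**
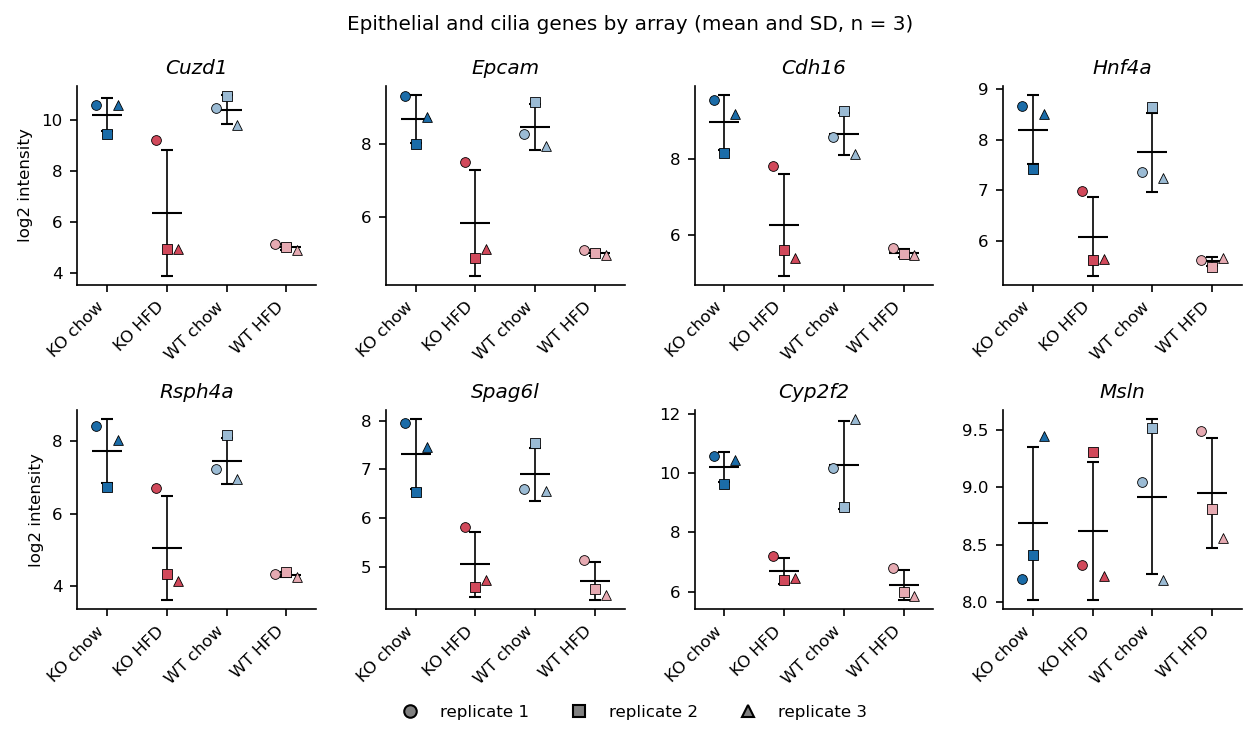
Log2 intensity of 8 genes on each array (y axis), by genotype and diet (x axis); markers are replicates, and bars show the mean and SD of n = 3 arrays. Cuzd1, Epcam, Cdh16, Hnf4a and Rsph4a were high on all chow arrays, intermediate on KO HFD replicate 1 and low on the other HFD arrays, and the mesothelial gene Msln did not follow that order.

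The same order of arrays ran through most of the large falls. Among the 256 genes lower by more than 2-fold, KO HFD replicate 1 was the highest HFD array for 242 and KO chow replicate 2 the lowest chow array for 244, against 6739 and 6326 of 19937 genes overall. The median of these 256 genes stood 0.97 below the chow mean on KO HFD replicate 1 and 1.67 and 1.80 below it on KO HFD replicates 2 and 3. Among the 34 genes higher by more than 2-fold, KO HFD replicate 1 was the highest HFD array for 11. A list of motile cilia genes and a list of transport genes of kidney-type epithelium were drawn up after these values were seen and serve only as a description. Of 28 measured cilia genes 18 fell, among them Rsph4a, a radial spoke protein, which read 8.41, 6.75 and 8.03 on chow and 6.71, 4.33 and 4.14 on HFD. The mean level of the cilia list was 6.98, 6.04 and 6.63 on the chow arrays and 5.78, 5.22 and 5.13 on the HFD arrays. Of 20 transport genes 11 fell, among them Hnf4a, a nuclear receptor of liver and absorptive epithelia, with 8.67, 7.42 and 8.52 on chow and 6.98, 5.63 and 5.65 on HFD. The medians were -0.99 and -1.01 in KO and -0.99 and -0.97 in WT, where 23 and 12 genes fell. No member of either list had a called difference between the KO and WT responses, and the lowest adjusted p was 0.33 for cilia and 0.46 for transport genes. The cilia count was 0 or 1, and the transport count 0, without KO HFD replicate 2, KO HFD replicate 3, KO chow replicate 1 or KO chow replicate 3. The counts were 19 and 11 without KO HFD replicate 1 and 5 and 0 with only the KO arrays in the fit.

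The mesothelial, mammary and salivary, and male tract lists held 0 to 2 called genes each. The share called was 15.4% for mesothelial and 16.7% for mammary and salivary markers, against 6.34% of all genes. Of 13 mesothelial markers, 2 fell, the keratins Krt8 (-1.74 ± 0.45, adjusted p = 0.044) and Krt18 (-1.54 ± 0.36, adjusted p = 0.034), while Msln, the defining marker mesothelin, read 8.20, 8.41 and 9.45 on chow and 8.32, 9.31 and 8.23 on HFD (-0.06 ± 0.42, adjusted p = 0.95). Of 12 markers of mammary and salivary epithelium, 2 fell, Epcam and Cdh1 (-1.35 ± 0.30, adjusted p = 0.029). The calls of Krt8, Krt18, Epcam and Cdh1 were lost without KO chow replicate 1, KO chow replicate 3, KO HFD replicate 2 or KO HFD replicate 3, which left 0 called in both lists, and 0 were called in either list with only the KO arrays in the fit. Krt8 and Krt18 also lost theirs without WT chow replicate 1, and Krt8 without WT chow replicate 3 or WT HFD replicate 3. None of 15 epididymis and male tract markers was called by limma, with 2 at an unadjusted p under 0.05 (median -0.05), and the list's mean stayed between 4.13 and 4.37 on the 6 KO arrays. Members of other lists that followed the order of arrays of Cuzd1 were Aldoc (8.54, 7.43 and 8.32 on chow, 7.41, 6.12 and 5.68 on HFD), Slc27a2, a fatty acid transporter in the brown adipocyte list (8.87, 7.59 and 8.61 on chow, 7.40, 5.12 and 5.06), and Bmpr1b, a BMP receptor (6.70, 5.68 and 6.76 on chow, 5.56, 5.09 and 4.92). In whole tissue, fewer cells of a type and less RNA per cell cannot be told apart, and the part of that order of arrays in the other results was not tested. Elovl6, Slc25a1 and Me1 did not share the order and were at their lowest on KO HFD replicate 1.

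Macrophage genes were not called in KO. Of 29 macrophage markers, 0 were called by limma and 3 had an unadjusted p under 0.05, against 22.8% of all genes, although 25 had a change above 0 (median 0.25). Cd68, a lysosomal glycoprotein of macrophages, read 10.11, 9.85 and 9.73 on chow and 10.28, 10.20 and 10.33 on HFD (0.38 ± 0.30, adjusted p = 0.51). The diets did not overlap, and the SE was nearly as large as the difference. That SE came from the shared spread of all 4 groups and was also 0.30 in WT. Within KO the SD of Cd68 was 0.19 on chow and 0.07 on HFD. With only the 6 KO arrays in the fit, 0 of the 29 markers were called as well. Adgre1, which encodes F4/80, had 0.43 ± 0.33 (adjusted p = 0.49), and Itgax, which encodes CD11c, read 6.33, 5.89 and 5.83 against 6.20, 6.60 and 6.99 (0.58 ± 0.46, adjusted p = 0.50). In WT, 22 of the 29 rose and 1 fell (median 0.93); Cd68 rose by 2.01 ± 0.30 and Itgax by 3.73 ± 0.46. The difference between the KO and WT responses had an unadjusted p under 0.05 for 19 of the 29, against 17.5% of all genes. None of the 29 was called after adjustment, with a lowest adjusted p of 0.081. Among the WT HFD arrays, this list was lowest on replicate 1. Without WT HFD replicate 1, 20 of the 29 had a KO response called below the WT response and 1 above. That fit called 2060 differences among all 19937 genes, against 1 in the reported fit of all arrays. Leaving out any other single array gave 0 called differences in the list. With array weights and all arrays kept, 18 of the 29 were called below the WT response and 2 above. Array weights called 2819 differences over all genes.

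Cell cycle genes were not called in KO either. Of 25 genes, 0 were called in KO by limma, with 0 at an unadjusted p under 0.05 (median 0.09), and 22 rose in WT (median 1.03). Mki67, a marker of proliferating cells, read 5.63, 5.66 and 5.13 on KO chow and 5.71, 5.70 and 5.68 on KO HFD (0.23 ± 0.24, adjusted p = 0.64), and Top2a, the topoisomerase of dividing cells, had 0.31 ± 0.26 (adjusted p = 0.52). In WT they rose by 1.61 and 1.97. The lowest adjusted p of the difference by limma was 0.062 over the list. Without WT HFD replicate 1, 20 of the 25 were called below the WT response. Leaving out any other single array gave 0 called differences in the list. With array weights 21 of the 25 were called below, and after the filter on dim genes 1 of the 18 kept. Of 24 lysosome genes 0 were called in KO and 17 rose in WT, and of 10 MHC class II genes 0 were called in KO and 8 rose in WT. By limma 0 genes of either list had an unadjusted p under 0.05 in KO. One chemokine gene, Ccl6, rose in KO among 25 cytokines and chemokines, from 10.45, 10.30 and 10.38 to 10.94, 11.07 and 11.05 (0.64 ± 0.11, adjusted p = 0.016). The list had 4.0% called, against 6.34% of all genes. The Ccl6 call was lost without KO chow replicate 3, KO HFD replicate 2 or KO HFD replicate 3.

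**Figure D3:**
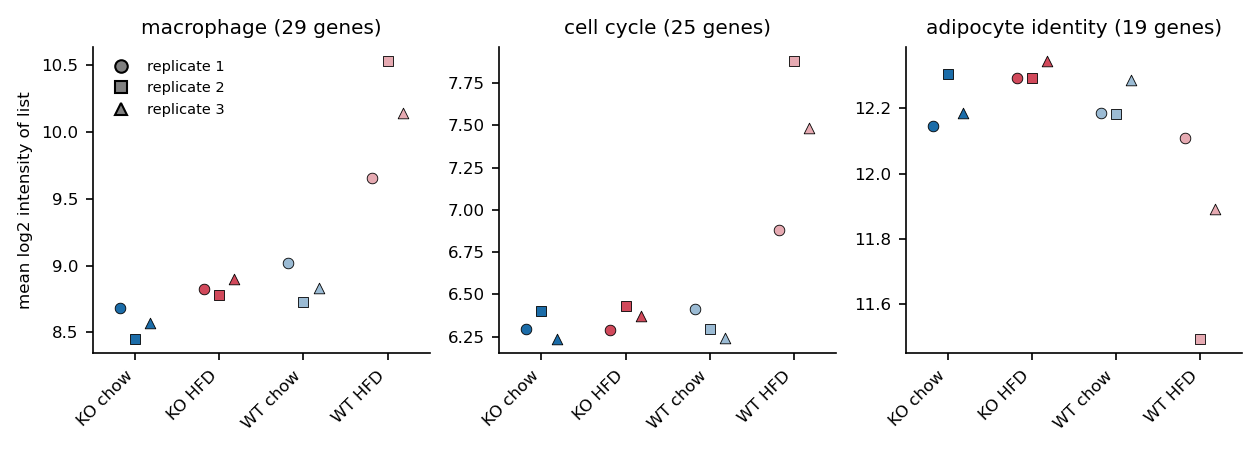
Mean log2 intensity over the measured members of 3 gene lists (y axis) on each array, by genotype and diet (x axis); markers are replicates. The macrophage list lay at 8.45 to 8.68 on KO chow and 8.78 to 8.90 on KO HFD, against 9.65 to 10.53 on WT HFD; the cell cycle list overlapped between the KO diets.

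Matrix genes rose at a few members. Of 22 collagen genes, 3 rose and 0 fell in KO (median 0.18). Col12a1, a fibril-associated collagen, read 5.93, 5.97 and 5.89 on chow and 6.61, 6.85 and 6.79 on HFD (0.82 ± 0.12, adjusted p = 0.0092), with no overlap and little spread. In WT it rose by 1.99 ± 0.12, and the difference of -1.17 had an unadjusted p of 2.2e-05 and was not called after adjustment. Col6a1, a chain of the microfibrillar collagen around adipocytes, rose by 0.57 ± 0.14 (adjusted p = 0.035), and Col18a1, a basement membrane collagen, by 0.43 ± 0.08 (adjusted p = 0.016). In WT 14 collagen genes rose and 2 fell. The KO count was 0 without KO HFD replicate 3, 1 without KO HFD replicate 2 or KO chow replicate 1, and 5 without KO HFD replicate 1. Of 23 genes of matrix remodelling, 2 rose, Thbs1 and Thbs2, and 16 rose in WT. The share called in KO was 13.6% for collagens and 8.7% for matrix remodelling, against 6.34% of all genes.

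Few genes of signals that act on fat growth were called. Among 31 genes of TGF-beta and BMP signalling, 2 ligands rose and 1 receptor fell (9.68% called, against 6.34% of all genes). Bmp2 read 6.27, 6.30 and 6.26 on KO chow and 7.42, 7.15 and 7.15 on KO HFD (0.96 ± 0.20, adjusted p = 0.023), and its chow arrays lay within 0.04 of each other. The call was lost without KO chow replicate 1, KO chow replicate 3 or any KO HFD array. In WT it had 0.07 ± 0.20 (unadjusted p of the difference 0.0081). Bmp3 rose and Bmpr1b fell as given above, and the TGF-beta ligands, their receptors and the SMADs were not called. None of 20 genes of insulin signalling was called by limma in KO, with 3 at an unadjusted p under 0.05. Among 14 AHNAK partners and relatives, 3 rose and 0 fell (median 0.10, 21.4% called against 6.34% of all genes). Anxa2, the annexin that AHNAK binds, read 12.06, 12.24 and 12.05 on chow and 12.59, 12.76 and 12.93 on HFD (0.64 ± 0.09, adjusted p = 0.0099), a call that held whichever array was left out. Anxa1, a related annexin, rose by 0.59 ± 0.09 (adjusted p = 0.012), and Pkp2, a desmosomal plaque protein, by 0.74 ± 0.14 (adjusted p = 0.019). Anxa1 lost its call without KO HFD replicate 3, and Pkp2 also without KO HFD replicate 2, KO chow replicate 1 or KO chow replicate 3. S100a10, the partner of annexin A2, had 0.21 (adjusted p = 0.11). In WT Anxa2 rose by 0.67 and Anxa1 by 0.74. The differences of KO from WT, -0.02 and -0.15, were not called.

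**Figure D4:**
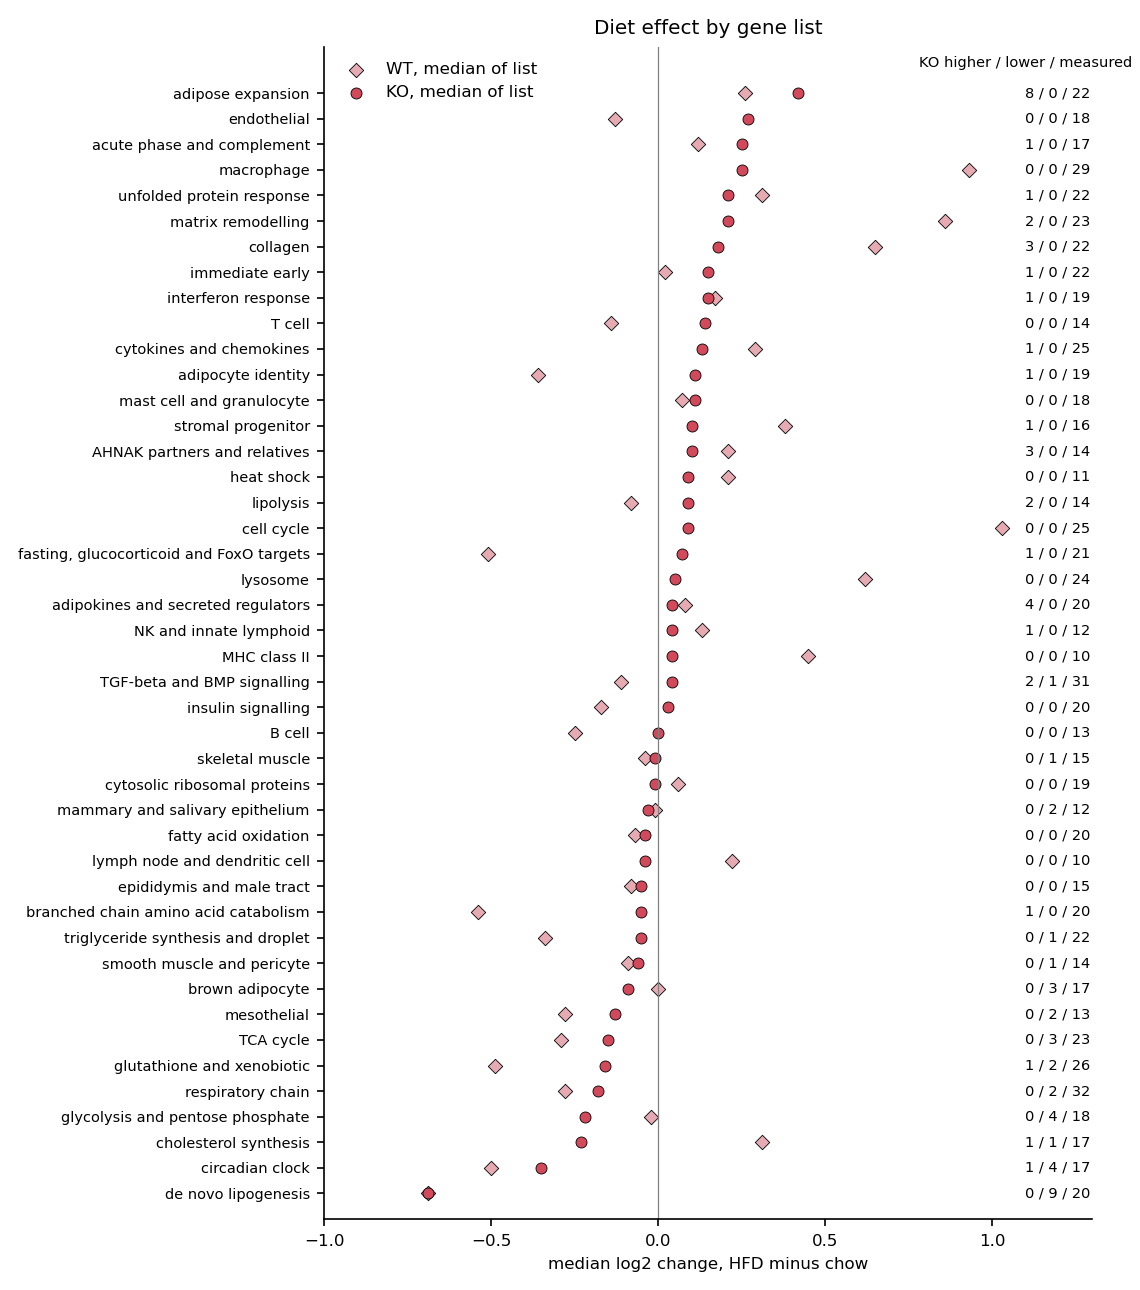
Median log2 change of each of 44 gene lists on HFD (x axis), circles for KO and diamonds for WT; the numbers at the right give members called higher, called lower and measured in KO. De novo lipogenesis had the lowest and adipose expansion the highest KO median, and the macrophage and cell cycle medians lay at 0.25 and 0.09 in KO and at 0.93 and 1.03 in WT.

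The KO response was set against that of WT, with which it shares no arrays. Both take their SE from the same estimate of spread, so calls in KO and in WT are not independent. Of the 1264 genes called in KO, 1166 had the same sign in WT and 847 were also called there in the same direction, which is 67.0% of the KO calls and 17.6% of the WT calls. Over all genes 24.1% were called in WT, 11.8% higher and 12.3% lower. The diet effects of KO and WT correlated across genes at r = 0.64, a description, since genes are not independent replicates. The difference between the 2 responses was called for 1 gene, Ppfibp2 (0.00502%), and for 0 of the genes called in KO, of which 285 had an unadjusted p under 0.05. Leaving out WT HFD replicate 1 gave 2060 called differences, and leaving out any other array gave 0 to 20. The count was 0, so that the Ppfibp2 call was lost, with the replicate block and without WT chow replicate 1, WT chow replicate 3, KO chow replicate 1, WT HFD replicate 2 or WT HFD replicate 3.

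A few genes moved in opposite directions. The call was opposite in KO and WT for 14 genes. Besides Bckdhb they included Ddx17, an RNA helicase of splicing, which read 9.86, 9.69 and 9.85 on KO chow and 10.14, 10.07 and 10.21 on KO HFD (0.34 ± 0.07, and -0.35 ± 0.07 in WT). Ccnl2, a cyclin of the splicing machinery, had 0.47 ± 0.11 in KO and -0.44 ± 0.11 in WT, Prpf4b, a splicing kinase, 0.28 ± 0.06 and -0.25 ± 0.06, Pdzrn3, a ubiquitin ligase, 0.38 ± 0.08 and -0.29 ± 0.08, and Ogt, the O-GlcNAc transferase, 0.35 ± 0.08 and -0.28 ± 0.08. Their unadjusted p for the difference ran from 3.1e-05 for Ddx17 to 0.00019 for Ogt. The choice of genes with opposite calls makes a small p here likely beforehand, so it adds no support. None of these differences was called after adjustment (adjusted p from 0.055 for Ddx17 to 0.061 for Ogt). The KO calls of all 5 were lost without KO chow replicate 1, KO chow replicate 3 or any KO HFD array, that of Prpf4b also without WT HFD replicate 3 and that of Ogt also without KO chow replicate 2 or WT chow replicate 1. Sorl1, a sorting receptor of the LDL receptor family named after its values were seen, read 9.05, 9.27 and 8.41 on KO chow and 6.91, 7.38 and 7.24 on KO HFD (-1.73 ± 0.24, adjusted p = 0.007). In WT it had 0.28 ± 0.24, and the difference of -2.02 had an adjusted p of 0.055. Its KO call held whichever array was left out, and its KO chow arrays were all above the WT chow arrays, which read 7.48 to 8.23.

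Small RNA genes were passed over by the naming rule, and those given here were chosen after their values were seen. Mature let-7 RNAs share a seed, the bases that pair with targets, and the 2 let-7 genes that rose in KO encode the following RNAs, with the seed (bases 2 to 8) in capitals, from RefSeq.
let-7f-5p: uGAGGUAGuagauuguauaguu
let-7d-5p: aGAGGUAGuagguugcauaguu
Both have the seed GAGGUAG, and both genes lie on the minus strand of GRCm38.p6, at chr13:48537889-48537910 and chr13:48536078-48536099 for the mature stretches. Mirlet7f-1 read 4.34, 4.57 and 4.34 on KO chow and 5.57, 5.14 and 5.49 on KO HFD (0.98 ± 0.14, adjusted p = 0.0078). Mirlet7d read 4.75, 4.85 and 4.61 on KO chow and 5.56, 5.37 and 5.49 on KO HFD (0.74 ± 0.11, adjusted p = 0.011). Neither overlapped between diets, and both lay below the median of all values, 5.84. In WT they had -0.13 ± 0.14 and 0.01 ± 0.11, and the differences, 1.11 and 0.73, had adjusted p of 0.055 and 0.087. The Mirlet7f-1 call held whichever array was left out, and the Mirlet7d call was lost without KO HFD replicate 3. Mirlet7a-1, another gene of that seed family, had 0.09 ± 0.15 (adjusted p = 0.77). The files do not say whether these rows read the precursor or the mature RNA. Of 297 miRNA genes, 3 rose and 3 fell, smaller shares than the 2.80% called higher and 3.54% called lower over all genes.

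**Figure D5:**
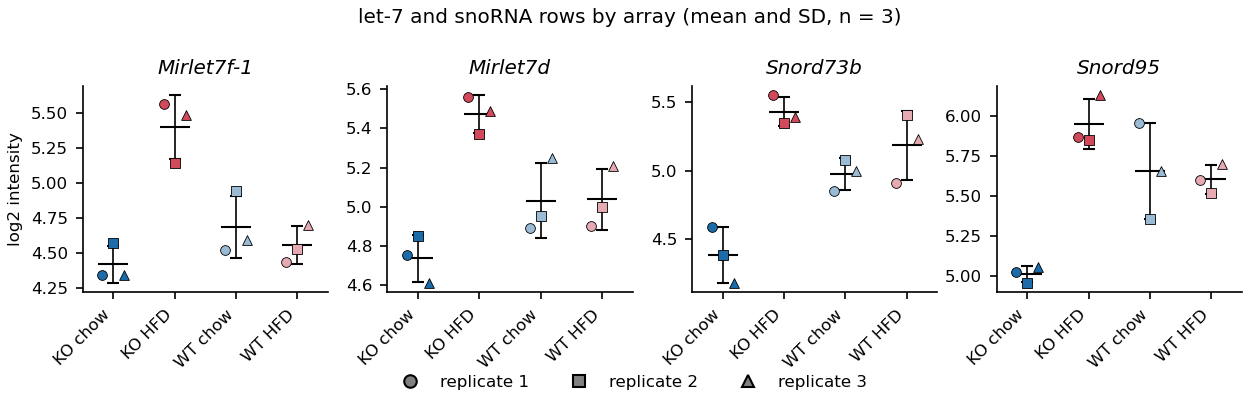
Log2 intensity of 4 small RNA genes on each array (y axis), by genotype and diet (x axis); markers are replicates, and bars show the mean and SD of n = 3 arrays. All 3 KO HFD arrays lay above all 3 KO chow arrays for each gene, and the WT diets overlapped.

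Small nucleolar RNAs, which guide the modification of ribosomal RNA, were called in both directions. Of 53 snoRNA genes 7 rose and 1 fell in KO, where 2.80% of all genes were called higher and 3.54% lower, and 2 rose and 2 fell in WT. Snord73b read 4.59, 4.38 and 4.18 on KO chow and 5.55, 5.35 and 5.39 on KO HFD (1.04 ± 0.14, adjusted p = 0.0061). Snord95 read 5.03, 4.96 and 5.06 against 5.87, 5.85 and 6.13 (0.94 ± 0.13, adjusted p = 0.0081). Both calls held whichever array was left out. Snord37 rose by 1.14 ± 0.18 and Snord14e by 1.18 ± 0.26, and Snord33 fell by 0.80 ± 0.15. Snord37 lost its call without KO HFD replicate 3, and Snord14e and Snord33 without 4 or more of the KO arrays in turn. On KO chow Snord73b, Snord37 and Snord95 lay below the WT chow arrays, with Snord37 at 3.66 to 3.74 against 4.30 to 4.93. The median change of all 53 was 0.04.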

How the data were processed

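RNA of white adipose tissue was hybridised to 1-colour Affymetrix arrays, 1 per sample. The authors deposited a table of 34760 rows by 12 arrays on a log2 scale, with array medians of 5.78 to 5.92. The base was read from the range of the values, 2.09 to 14.2. The submitters' processing notes name affy without a version, and for background correction, summarization and normalization the method was not given in the sources used. The number of arrays limits the precision.

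The platform annotation gave 1 symbol to 21640 rows, several to 1321 and none to 11799. Where several rows shared a symbol (954 genes), the one with the highest mean over the 12 arrays was kept, which left 19937 genes. A mean for each of 4 groups was fitted to all 12 arrays with lmFit and eBayes (limma 3.58.1, R 4.3.3; 8 residual degrees of freedom). Tests were two-sided with Benjamini-Hochberg adjustment over all genes. The fit was also run on simulated data, drawn independently for each gene with no effect shared within an array. Such data cannot show how the fit handles the order of arrays described above. Arrays were grouped by their labels. The diet response in KO was contrasted, then set against that in WT by an interaction term. Alternatives were the 6 KO arrays alone, a replicate block, quantile normalization, array weights, a trended robust prior, a filter on dim genes, the mean of a gene's rows, and each array left out.

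Genes were named by rule: 9 genes always, the 12 largest rises and falls without overlap, up to 4 called members of each of 44 lists, and up to 6 called in opposite directions in WT, passing over predicted genes, olfactory receptors and small RNAs. The members, lists and rule were chosen with earlier results of these data known. Promoters and miRNAs came from RefSeq tables of GRCm38.p6, matched by Entrez gene ID. Promoters were found for 15562 genes, and each of 7 motifs was searched on both strands: the E-box CACGTG, the D-box TTANGTAA, the CRE TGACGTCA, the receptor half-site AGGTCA, the CCAAT box, the GC box GGGCGG and the sterol element TCACNCCA. No detection calls were used, so no value was set against background.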

Additional observations from a re-analysis of the deposited data

Results flagged for a closer look

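Ppfibp2, a scaffold protein of the liprin family, was the 1 gene for which the KO and WT responses to diet differed after adjustment. It read 6.93, 6.80 and 6.88 on KO chow and 6.87, 6.94 and 7.12 on KO HFD (0.10 ± 0.08, adjusted p = 0.49). In WT it read 6.90, 6.89 and 6.80 on chow and 7.99, 8.11 and 8.16 on HFD (1.22 ± 0.08). The difference of -1.12 had an adjusted p of 0.014. No difference was called for any gene, this one included, with the replicate block or without WT chow replicate 1, WT chow replicate 3, KO chow replicate 1, WT HFD replicate 2 or WT HFD replicate 3. The WT HFD arrays stood apart from the other 9, which overlapped.

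Rows of the array that carry no single gene symbol lay outside the comparisons of genes. In a fit of all rows, an alternative chosen after seeing the data, limma called 180 of 13120 such rows for HFD against chow in KO (1.37%), 131 higher and 49 lower.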

How the results depend on the processing

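Without the WT arrays, that is with the 6 KO arrays alone, limma called 585 genes, 336 higher and 249 lower, against 1264, 559 and 705. Array weights gave 2137, 982 and 1155. The counts with each array left out ran from 62 to 1509 in all, 39 to 670 higher and 23 to 962 lower. Whether the replicate numbers pair the KO arrays was not settled. The deviations of same-numbered arrays correlated at 0.38, 0.25 and -0.27 in KO and at -0.13, 0.05 and 0.04 in WT, and differently numbered arrays were not compared. With the replicate block the counts were 740, 333 and 407. Differences between the KO and WT responses, 1 called in the reported fit, numbered 0 with the replicate block, 2819 with array weights, 75 after the filter on dim genes and 0 to 2060 with each array left out, the highest without WT HFD replicate 1. WT calls numbered 9985 with array weights and 3072 to 5285 with each array left out. The cause of these shifts was not tested. Quantile normalization (1012), the trended robust prior (1244), the filter on dim genes (1235) and the mean of a gene's rows (1301) left the KO count within 1.5 times. No named gene reversed its sign while called under any alternative run. With 3 arrays a group a median SE of 0.10 limits which small changes can be called.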

Other observations

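Further gene groups in KO held 1 to 3 called members each, a share of 4.55% to 17.6% against 6.34% of all genes. Of 17 genes of cholesterol synthesis, Hmgcs1, the HMG-CoA synthase, rose (10.72, 10.69 and 10.76 on chow, 11.29, 11.73 and 11.49 on HFD, 0.78 ± 0.18, adjusted p = 0.034), and Fdft1, the squalene synthase, fell (-0.45 ± 0.10, adjusted p = 0.032). In the glutathione and xenobiotic list of 26 genes, Sod3, the extracellular superoxide dismutase, rose by 0.41 ± 0.10, while Cyp2f2 and Gclm, a subunit of the enzyme that starts glutathione synthesis, fell; in WT 14 of the list fell. Of 17 brown adipocyte genes, 3 fell: Cidea, a lipid droplet protein (-0.86 ± 0.18, adjusted p = 0.025), Slc27a2 and Tbx1 (-0.33 ± 0.09). Cidea was also the 1 called member among 22 genes of triglyceride synthesis and droplets. Of 22 genes of the unfolded protein response, Edem1, which targets misfolded glycoproteins for degradation, rose (0.49 ± 0.10, adjusted p = 0.022), and 12 had an unadjusted p under 0.05; in WT 13 rose. Of 21 fasting, glucocorticoid and FoxO targets, Angptl4 was the 1 called in KO, and 12 fell in WT.

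Immune, stromal and muscle lists held 0 or 1 called gene each, a share near the 6.34% called over all genes or below it, so the genes below are described singly. Klrg1, a receptor of natural killer and effector T cells, read 5.36, 5.41 and 5.31 on KO chow and 5.76, 6.20 and 6.42 on KO HFD (0.77 ± 0.17, adjusted p = 0.03), the 1 called of 12 genes of natural killer and innate lymphoid cells; in WT it had 0.08 ± 0.17. None of 18 endothelial, 14 T cell, 18 mast cell and granulocyte, 13 B cell or 10 lymph node and dendritic cell markers was called by limma in KO, with 2, 1, 2, 0 and 1 at an unadjusted p under 0.05. C4b, a complement component, rose by 0.72 ± 0.18 (adjusted p = 0.04), Stat2, a mediator of interferon signalling, by 0.34 ± 0.08 (adjusted p = 0.037), and Klf6, an immediate early transcription factor, by 0.37 ± 0.08 (adjusted p = 0.03). They were the 1 called of 17 acute phase and complement genes, of 19 interferon response genes and of 22 immediate early genes. Anxa3 rose by 0.56 ± 0.14, the 1 called of 16 stromal progenitor genes. Cspg4, the proteoglycan NG2 of pericytes, read 7.24, 7.54 and 7.42 on chow and 6.82, 7.04 and 6.66 on HFD (-0.56 ± 0.10, adjusted p = 0.019), without overlap, the 1 called of 14 smooth muscle and pericyte genes. Mb, which encodes myoglobin, fell by 0.52 ± 0.10 (adjusted p = 0.022) and was the 1 called of 15 skeletal muscle genes. In KO, 0 of 20 fatty acid oxidation, 0 of 11 heat shock and 0 of 19 listed cytosolic ribosomal protein genes were called. By limma, 5, 2 and 1 of them had an unadjusted p under 0.05. Every call in these 2 paragraphs was lost without KO HFD replicate 3, and each also without at least 1 other array. Of the 12 fits with 1 array left out, Cspg4 and Mb kept their calls in 10 and the others in fewer. Fdft1, Sod3 and Gclm kept theirs in 6, C4b and Stat2 in 5, Anxa3 in 3 and Tbx1 in 2.

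The following genes, among the 58 whose calls held whichever array was left out, were chosen after their values were seen. Syp, the synaptic vesicle protein synaptophysin, read 7.46, 7.35 and 7.34 on KO chow and 8.43, 8.86 and 8.87 on KO HFD (1.34 ± 0.13, adjusted p = 0.0014), and it rose by 1.32 in WT. Cacna1e, a voltage-gated calcium channel, rose by 1.13 ± 0.16 and Atp2a3, a calcium pump of the endoplasmic reticulum, by 1.20 ± 0.14. Slc7a8, an amino acid transporter, rose by 1.14 ± 0.12, Synpo2, an actin-binding protein, by 1.24 ± 0.15, and Angpt2, a ligand of the endothelial receptor TIE2, by 0.90 ± 0.11. Parm1 fell by 1.39 ± 0.19. Rpl12, a cytosolic ribosomal protein gene outside the list of 19, rose by 0.93 ± 0.11 (limma adjusted p = 0.0042).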
